A study of Mus musculus with 2 samples.

Results

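Cycling AT2 cells were 57 of the 1677 cells of class AT2 in the CD45-negative library, out of 3957 cells in that library and 15389 cells in the series. AT2 is the class the authors deposited for alveolar type 2 cells, and a cell counted as cycling when the unique molecular identifiers (UMI, counted transcripts) of Mki67, Top2a, Cdk1 and Cenpf summed to at least 3. They were set against the 1467 AT2 cells of the same library in which this sum was 0, called sum-0 cells here. The 129 cells with a sum of 1 and the 24 cells with a sum of 2 belonged to neither group. The tissue was lung adenocarcinoma of C57BL/6 mice, cut out under magnification and made into single cells. Magnetic beads against CD45, a surface protein of leukocytes, gave a CD45-negative and a CD45-positive fraction, each deposited as 1 droplet library of transcript 3' ends. Both groups compared here therefore share strain, fraction and library. No label gives the mouse or tumour of a cell, so whether the groups share tumours is unknown. The cell names carry the word LucOS, which the sources used here do not explain, and they give neither the number of mice nor the alleles and stage of the tumours. No tumour cell class is among the 7 deposited classes, so AT2 may hold tumour cells as well as normal cells.

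Alveolar type 2 cells make, store and secrete pulmonary surfactant, and they are the progenitors that replace themselves and the flat gas-exchange AT1 cells of the alveolus. They are also a common cell of origin of lung adenocarcinoma. A dividing cell first makes the enzymes that copy DNA and supply nucleotides, mostly under E2F factors, and then the cyclins, kinases, motors and ubiquitin ligase subunits that condense, align and separate the chromosomes, mostly under the B-MYB and FOXM1 factors and the DREAM complex.

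With 1 library per fraction there is no replicate, so no test, standard error or p-value is given, and cells are not replicates. The cells were chosen by 4 genes of the same counts, so the values below describe them and test nothing. Levels are CPM, the UMI of a gene per 1000000 UMI of the group, and ratios are cycling over sum-0. The 95% intervals are exact Poisson, Clopper-Pearson or conditional binomial intervals and cover counting error only, not the spread between cells or mice. A gene was called higher or lower at a ratio of 2 or more, or of 0.5 or less, among 10234 genes with at least 50 UMI in both groups together. Of these genes, 1045 were at least 2-fold higher (10.2%) and 549 at least 2-fold lower (5.36%) in cycling cells, and the median log2 ratio was 0.19. That shift is the background against which the lists below are read. When the groups were scaled to a median of 0 the split was 767 higher and 790 lower, and when they were scaled without surfactant, lysozyme, Cxcl15 and mitochondrial genes it was 758 higher and 797 lower. Ratios just above 2 below, such as those of Krt8, Cycs and Epcam, lie under 2 in both of these scalings.

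Cycling cells were deeper than the others. They had a median of 11705 UMI per cell (4727 to 91413), against 7934 UMI in sum-0 cells, and 1066922 UMI in all, against 15139532 UMI. The deepest cycling cell alone gave 8.57% of the group's UMI. When all AT2 cells were thinned to 4500 UMI, 36 cells met the rule. Of the barcodes, 57 occurred in both libraries, 25 of them on AT2 cells of the CD45-negative library, and none belonged to a cycling cell. No cells were removed here as doublets, and a UMI total above 40000, found in 9 cycling cells, may come from 1 or more cells, which was not tested.

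The AT2 label was checked against its own markers. Sftpc, the surfactant protein made by AT2 cells, had a UMI in each of the 57 cycling cells, with 1831, 60887 and 273078 CPM in the lowest, median and highest cell, against 1257, 138019 and 398482 CPM in sum-0 cells. Sftpc was also read in other classes of this library, where it is background: the median endothelial cell had 2774 CPM, and the 95th percentile of the 1249 endothelial cells was 6963 CPM. By that measure 44 of the cycling cells (77.2%) lay above the endothelial percentile, against 1334 of the sum-0 cells (90.9%), and 13 cycling cells did not. These 13 cells were deep, with 7410 to 91413 UMI and a median of 25123, and 11 of them fell in 1 sub-cluster that is described further on. All 13 had Sftpb, another surfactant protein, at 765 to 54763 CPM, where endothelial cells summed to 369 CPM. Epcam, an epithelial adhesion molecule, had a UMI in 52 cycling cells (91.2%) and 70.0% of sum-0 cells, against 6.08% of endothelial cells. Nkx2-1, the lineage factor of lung epithelium, had a UMI in 84.2% of cycling cells and 83.8% of sum-0 cells, against 8.17% of endothelial cells. The cycling cells were thus epithelial by these markers, and about 1 in 4 of them carried Sftpc at no more than the level of the surrounding non-epithelial cells.

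**Figure D1:**
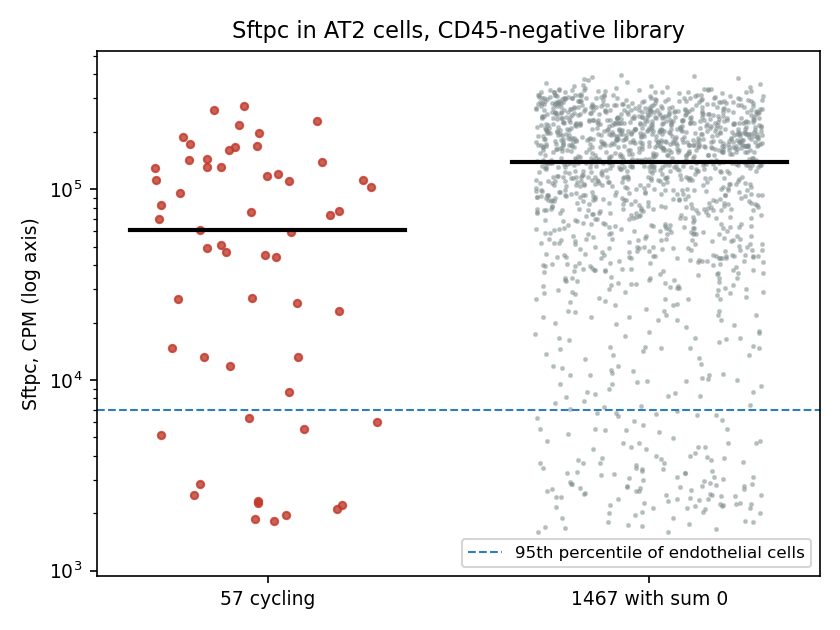
Sftpc level in CPM (log axis) of each cycling AT2 cell, left, and each AT2 cell with a sum of 0, right; the black bar is the median and the dashed line is the 95th percentile of endothelial cells of the same library. The medians are 60887 CPM in cycling cells and 138019 CPM in sum-0 cells, and 13 cycling cells lie at or under the line at 6963 CPM.

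The genes of the rule were spread unevenly over the cells. Mki67, which coats mitotic chromosomes, had a UMI in 40 of the 57 cells; Top2a, the topoisomerase that untangles DNA, in 44; Cdk1, the kinase that drives entry into mitosis, in 43; and Cenpf, a kinetochore protein, in 40. All 4 genes were present in 23 cells and a single gene in 7. The sum had a median of 7 and ran from 3 to 170 UMI, and the cell at 170 held 15.2% of all UMI of these genes. Their summed levels in cycling cells were 157 CPM for Mki67, 319.6 CPM for Top2a, 371 CPM for Cdk1 and 199.6 CPM for Cenpf, and 0 in sum-0 cells by the rule. On mouse GRCm38.p6 the genes lie apart: Cenpf at chr1:189640606-189688107, Mki67 at chr7:135689784-135716450, Cdk1 at chr10:69335146-69352912 and Top2a at chr11:98992947-99024199.

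The 212 genes of 10 cell cycle lists that the rule did not name followed the sum. Their level per cell had a median of 4105 CPM at a sum of 0, 4544 CPM at 1, 6724 CPM at 2, 10535 CPM at 3, 24400 CPM at 4 to 9 and 29164 CPM at 10 or more. The order of the medians was that of the sum, but the cells overlapped. The highest sum-0 cell had 23242 CPM, the highest cell at a sum of 1 had 29255 CPM, and the lowest cycling cell had 4858 CPM. Just inside the threshold stood 10 cells with a sum of 3 and just outside it 24 cells with a sum of 2. Mitotic genes summed to 2353 CPM (95% interval 2065 to 2670) at a sum of 3 and to 1411 CPM (1301 to 1528) at a sum of 2, against 846 CPM in sum-0 cells. The threshold therefore cuts through a gradient.

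**Figure D2:**
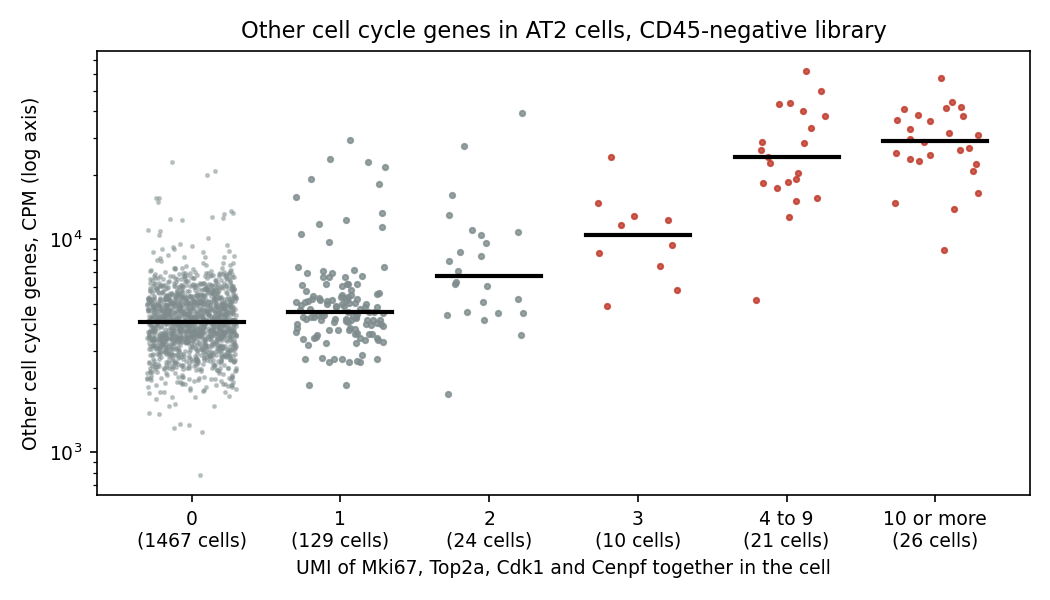
Summed level of cell cycle genes outside the rule in CPM (log axis) of each AT2 cell of the CD45-negative library, by the cell's UMI of the rule genes; grey points are cells outside the cycling group, red points are cycling cells and black bars are medians. The medians go from 4105 CPM at a sum of 0 to 29164 CPM at 10 or more, and single cells at 0, 1 and 2 reach the range of cycling cells.

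Of the 212 cell cycle genes, 146 had at least 50 UMI and 131 of these were at least 2-fold higher in cycling cells, where 10.2% of all genes were. The filter counts both groups, and 55 of the 146 genes passed it only with the UMI of the cycling cells, so it favours genes that are high there. Among the 91 genes with at least 50 UMI in sum-0 cells alone, 76 were at least 2-fold higher and 0 at least 2-fold lower, with a median log2 ratio of 2.22. On this narrower filter 8.92% of all genes were higher. The genes under 50 UMI, 66 in number, held 1338 UMI in cycling cells and 497 UMI in the much larger sum-0 group. The count of cell cycle genes at least 2-fold higher was 126 without the deepest cycling cell, 123 without the sub-clusters led by endothelial or globin genes that are described further on, and 97 without the cells at or under the endothelial Sftpc percentile.

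Mitotic genes were higher in nearly all measured members. Of the mitotic cyclins, kinases and their factors 14 of 14 measured genes were at least 2-fold higher (median log2 5.88), of the spindle and cytokinesis genes 23 of 23 (5.83), of the kinetochore and centromere genes 12 of 13 (5.30) and of the genes of the anaphase-promoting complex (APC/C) and mitotic exit 9 of 11 (4.40). Many of these genes passed the UMI minimum only with the cycling cells, 9 of the 14, 17 of the 23, 8 of the 13 and 3 of the 11. Those with at least 50 UMI in sum-0 cells alone had median log2 ratios of 2.83 (5 genes), 2.77 (6 genes), 4.36 (5 genes) and 2.08 (8 genes) in the same order of lists. Ccnb1, the cyclin partner of Cdk1, stood at 124 CPM in cycling cells against 0.528 CPM in sum-0 cells, a ratio of 234 (95% interval 115 to 554), with a UMI in 31 cycling and 6 sum-0 cells. Ccna2, the cyclin of S phase and G2, stood at 136 CPM in cycling cells against 0.793 CPM in sum-0 cells, a ratio of 171 (95% interval 95.2 to 339.5). Aurkb, the kinase of the chromosomal passenger complex, had a ratio of 263 (95% interval 98.3 to 989), and its partner Birc5 (survivin) stood at 351 CPM in cycling cells against 3.17 CPM in sum-0 cells, a ratio of 111 (95% interval 81.7 to 153).

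Genes of the ubiquitin step that ends mitosis were higher too. Ube2c, the enzyme that hands ubiquitin to the APC/C, had 576 UMI in cycling and 59 UMI in sum-0 cells, or 539.9 CPM in cycling cells against 3.9 CPM in sum-0 cells, a ratio of 139 (95% interval 106 to 184). Cdc20, which activates the APC/C, stood at 310.2 CPM in cycling cells against 4.23 CPM in sum-0 cells, a ratio of 73.4 (95% interval 56 to 97.5). Fbxo5, an inhibitor of the APC/C, had a ratio of 35.8 (95% interval 21.7 to 60.8). Ube2c and Cdc20 both had a UMI in 43 of 57. After thinning to 4500 UMI a Ube2c UMI was left in 59.6% of cycling and 1.64% of sum-0 cells.

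Structural genes of the spindle and kinetochore were read in few sum-0 cells. Nusap1, a microtubule-bundling protein, had 137 UMI in 32 cycling cells and 2 UMI in all 1467 sum-0 cells, a ratio of 972 (95% interval 264 to 8107). Hmmr, a spindle protein, had 73 and 2 UMI, a ratio of 518 (95% interval 138 to 4357), and Cenpe, the kinesin of the kinetochore, 97 and 3 UMI, a ratio of 459 (95% interval 152 to 2264). With 2 or 3 UMI in the sum-0 group these intervals are wide, and the ratios should be read by their lower ends. In the condensin and cohesin list 10 of 10 measured genes were at least 2-fold higher (median log2 2.74). Esco2, which acetylates cohesin, had a ratio of 326 (95% interval 107 to 1621) and Smc2, a core condensin subunit, one of 24.4 (95% interval 18.6 to 32.2).

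The promoters of these genes share short elements that the rule did not use. In textbook accounts the element TTTGAA (cell cycle gene homology region, CHR) binds the DREAM and B-MYB complexes, CCAAT binds NF-Y, and E2F sites take the forms TTTCCCGC, TTTCGCGC, TTTGCCGC and TTTGGCGC. RefSeq promoters (GRCm38.p6, from 250 bases before to 50 bases after the gene's start) were found for 71 of the 87 mitotic genes, 47 of the 56 replication and nucleotide genes, 4 of the 4 rule genes and 12700 of the 17790 genes in the count table. TTTGAA, sought on both strands, was in 62.0% of the mitotic promoters, 14.9% of the replication and nucleotide promoters and 14.9% of all promoters. CCAAT was in 73.2% of the mitotic, 68.1% of the replication and nucleotide and 41.9% of all promoters, and TTTGAA and CCAAT together were in 52.1%, 10.6% and 5.94%. An E2F form was in 5.63% of the mitotic, 31.9% of the replication and nucleotide and 4.11% of all promoters. These are matches of letters, and no binding was measured. Below are the promoters of Cdk1 and 3 mitotic genes with high ratios (chosen after their values were seen), with TTTGAA and CCAAT matches of either strand in capitals, then of the replication genes Mcm5 and Cdc6 with E2F matches in capitals. Each is written 5' to 3' on the gene's own strand.
Cdk1, chr10:69352863-69353162, minus strand: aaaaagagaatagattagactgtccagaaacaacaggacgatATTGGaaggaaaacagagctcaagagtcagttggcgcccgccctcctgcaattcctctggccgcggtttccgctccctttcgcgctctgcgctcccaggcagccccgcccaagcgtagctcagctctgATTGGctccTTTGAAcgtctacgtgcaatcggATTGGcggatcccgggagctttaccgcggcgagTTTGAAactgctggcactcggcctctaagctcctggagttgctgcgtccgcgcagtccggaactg
Ube2c, chr2:164769679-164769978, plus strand: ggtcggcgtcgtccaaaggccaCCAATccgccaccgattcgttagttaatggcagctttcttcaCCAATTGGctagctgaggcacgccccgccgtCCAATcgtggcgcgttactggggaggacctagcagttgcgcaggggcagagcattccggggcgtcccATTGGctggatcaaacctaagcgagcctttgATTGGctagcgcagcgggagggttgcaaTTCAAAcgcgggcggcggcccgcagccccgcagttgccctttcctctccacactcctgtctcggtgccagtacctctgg
Hmmr, chr11:40733388-40733687, minus strand: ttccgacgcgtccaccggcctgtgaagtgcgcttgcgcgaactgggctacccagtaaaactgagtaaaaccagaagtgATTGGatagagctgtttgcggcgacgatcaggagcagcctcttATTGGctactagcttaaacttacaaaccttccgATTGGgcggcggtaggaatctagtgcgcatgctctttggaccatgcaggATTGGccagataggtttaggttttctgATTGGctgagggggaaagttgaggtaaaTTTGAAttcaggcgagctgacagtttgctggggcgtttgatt
Cdc20, chr4:118437294-118437593, minus strand: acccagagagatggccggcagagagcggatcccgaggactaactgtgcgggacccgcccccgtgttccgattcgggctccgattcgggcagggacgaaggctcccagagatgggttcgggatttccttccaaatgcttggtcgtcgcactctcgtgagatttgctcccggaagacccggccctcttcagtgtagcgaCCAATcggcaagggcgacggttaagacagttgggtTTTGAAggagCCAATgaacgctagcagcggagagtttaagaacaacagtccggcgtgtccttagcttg
Mcm5, chr8:75109259-75109558, plus strand: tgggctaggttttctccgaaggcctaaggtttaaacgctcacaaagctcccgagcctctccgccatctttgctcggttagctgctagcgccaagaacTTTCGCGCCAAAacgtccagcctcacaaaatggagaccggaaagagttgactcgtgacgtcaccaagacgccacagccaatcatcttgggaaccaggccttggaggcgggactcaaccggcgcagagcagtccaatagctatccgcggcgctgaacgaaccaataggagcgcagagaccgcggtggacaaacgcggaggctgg
Cdc6, chr11:98907901-98908200, plus strand: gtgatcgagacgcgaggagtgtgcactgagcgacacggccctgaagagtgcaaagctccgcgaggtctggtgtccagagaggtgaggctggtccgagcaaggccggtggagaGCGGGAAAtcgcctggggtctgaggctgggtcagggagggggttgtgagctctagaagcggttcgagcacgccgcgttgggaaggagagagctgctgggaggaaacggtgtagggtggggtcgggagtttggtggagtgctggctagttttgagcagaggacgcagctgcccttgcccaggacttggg

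Genes of DNA replication were higher as well. Of the replication licensing and fork genes 30 of 41 had at least 50 UMI and 30 were at least 2-fold higher (median log2 2.75). With the minimum set on sum-0 cells alone it was 23 of 23 (median log2 2.37). Mcm5, a subunit of the replicative helicase, stood at 71.2 CPM in cycling cells against 2.38 CPM in sum-0 cells, a ratio of 30 (95% interval 19.9 to 45.9), and its partner Mcm6 at 60.9 CPM in cycling cells against 8.06 CPM in sum-0 cells, a ratio of 7.56 (95% interval 5.51 to 10.3). Pcna, the sliding clamp, stood at 112 CPM in cycling cells against 17.4 CPM in sum-0 cells, a ratio of 6.42 (95% interval 5.13 to 8), and Lig1, the ligase that joins nicks behind the fork, had a ratio of 17.1 (95% interval 12.5 to 23.4). Of the nucleotide synthesis genes 10 of 15 were at least 2-fold higher (median log2 2.09). Rrm2, the S-phase subunit of ribonucleotide reductase, stood at 97.5 CPM in cycling cells against 0.330 CPM in sum-0 cells, a ratio of 295 (95% interval 123 to 928), where Rrm1, the partner subunit, had 11.5 (95% interval 8.55 to 15.3). Thymidine kinase Tk1 had 33.3 (95% interval 24.1 to 46.5) and thymidylate synthase Tyms 12.7 (95% interval 10.2 to 15.7).

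Chromatin genes were higher too: 13 of 14 measured histone and chromatin genes were at least 2-fold higher (median log2 2.53). Hist1h2ap, a histone H2A gene of the replication-dependent kind, stood at 368 CPM in cycling cells against 1.98 CPM in sum-0 cells, a ratio of 186 (95% interval 128 to 279), though reads of near-identical histone genes may be assigned to any copy. Hmgb2, a DNA-bending protein, stood at 895 CPM in cycling cells against 57.4 CPM in sum-0 cells, a ratio of 15.6 (95% interval 14.2 to 17.1), and Stmn1, which destabilises microtubules, at 1309 CPM in cycling cells against 142 CPM in sum-0 cells, a ratio of 9.25 (95% interval 8.64 to 9.9). Stmn1 had a UMI in 96.5% of cycling and 63.2% of sum-0 cells, so its presence does not set the groups apart. All 5 measured DNA repair and checkpoint genes were at least 2-fold higher (median log2 2.45).

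Most cycling cells held more UMI of mitotic than of replication and nucleotide genes. After thinning to 4500 UMI the cycling cells held a median of 35 UMI of mitotic genes (2 to 86) and 14 UMI of replication and nucleotide genes (2 to 36), against medians of 4 and 2 UMI in sum-0 cells. Mitotic UMI exceeded replication UMI in 46 cells, fell short of them in 8 and equalled them in 3. The lists differ in size, with 87 mitotic and 56 replication and nucleotide genes, and the medians of sum-0 cells lie in the same order. These counts therefore do not place the cells in a phase. The rule genes are themselves mostly genes of G2 and mitosis, so a cell early in S phase may miss the rule.

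**Figure D3:**
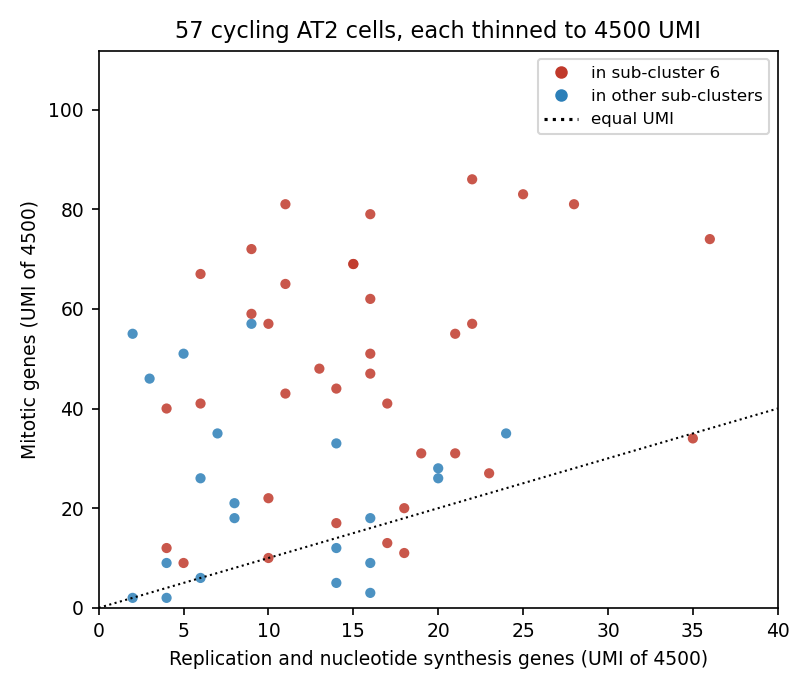
UMI of replication and nucleotide synthesis genes (x axis) and of mitotic genes (y axis) in each of the 57 cycling AT2 cells after thinning to 4500 UMI; red points are cells of sub-cluster 6, blue points cells of the other sub-clusters, and the dotted line marks equal UMI. There are 46 points above the line, 8 below it and 3 on it.

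Genes of the G1 to S step differed less. Of the 11 measured cyclins, kinases and E2F factors of this list 5 were at least 2-fold higher and 0 lower (median log2 0.91). E2f1, an activating E2F factor, stood at 30 CPM in cycling cells against 2.51 CPM in sum-0 cells, a ratio of 11.9 (95% interval 7.23 to 19.6), and Cdk4, the kinase of D cyclins, at 208 CPM in cycling cells against 92.2 CPM in sum-0 cells, a ratio of 2.26 (95% interval 1.95 to 2.6). Ccnd1, cyclin D1, stood at 357 CPM in cycling cells against 244 CPM in sum-0 cells, a ratio of 1.46 (95% interval 1.31 to 1.63), under 2-fold. Inside sub-cluster 6, described below, 2 of 11 measured CDK inhibitors and quiescence genes were higher and 5 lower (median log2 -0.51), where 10.4% of all genes were higher and 5.74% lower. Over all AT2 cells 2 of 16 were higher and 1 lower (median log2 0.01). The 2 higher ones were Cdkn2d, at 86.2 CPM in cycling cells against 8.85 CPM in sum-0 cells and a ratio of 9.74 (95% interval 7.39 to 12.8), and Cdkn2c, at 55.3 CPM in cycling cells against 13.4 CPM in sum-0 cells and a ratio of 4.12 (95% interval 3.03 to 5.54), both inhibitors of CDK4 and CDK6. Cdkn1a (p21) stood at 97.5 CPM in cycling cells against 114 CPM in sum-0 cells, a ratio of 0.855 (95% interval 0.694 to 1.04), with 1 inside the interval. Of 14 measured p53 genes 5 were at least 2-fold lower and 1 higher (median log2 -0.07), on few UMI: Trp53 itself had 6 UMI in cycling and 272 UMI in sum-0 cells, a ratio of 0.313 (95% interval 0.114 to 0.690), and Bbc3, a death gene, 9 and 334 UMI, a ratio of 0.382 (95% interval 0.173 to 0.735).

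The cycling cells were concentrated in 1 AT2 sub-cluster. AT2 cells were clustered on genes that left out the rule genes and the cell cycle lists, at resolution 0.5, which gave 7 sub-clusters. Sub-cluster 6, with 104 cells, held 36 of the 57 cycling cells (63.2%, 95% interval 49.3 to 75.6), and 34.6% of its own cells were cycling (25.6 to 44.6). Its leading genes by fold were Tff1, Gkn2 and Ctse, gastric genes read in few cells, then Sprr2a3 and cell cycle genes such as Hist1h2ap. Sub-cluster 5, with 173 cells and endothelial genes in the lead, held 9 (5.20% of its cells), sub-cluster 1, led by Ccl9 and Ccl20 with 571 cells, held 6 (1.05%), and sub-cluster 2, led by Krtap17-1, Akap5 and Cldn4 with 243 cells, held 6 (2.47%). Sub-cluster 3, led by Cox6a2 with 332 cells, sub-cluster 4, led by Apoe, Lyz1 and Cbr2 with 237 cells, and sub-cluster 7, led by globin genes with 17 cells, held none, which allows a share of up to 1.10%, 1.54% and 19.5% by the upper ends of the intervals. At resolution 1.0 a cluster of 38 cells held 33 cycling cells and 0 sum-0 cells, and its leading genes were cell cycle genes (Hist1h2ap, Top2a and 2810417H13Rik), and cycle genes outside the lists stayed in the clustering. These shares describe the cells and are not tests, since the clustering used the same counts.

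Sub-cluster 6 lay at the low end of AT2 genes, beside sub-cluster 2. Its cells together had 44853 CPM of Sftpc, 3551 CPM of Lyz2 and 1235 CPM of the keratin Krt7. Sub-cluster 2 had 33806 CPM of Sftpc, 2652 CPM of Lyz2 and 1273 CPM of Krt7. The other sub-clusters had 110860 to 248123 CPM of Sftpc, 16184 to 36888 CPM of Lyz2 and 110.1 to 191 CPM of Krt7. The cycling cells and all sum-0 cells thus differ in their mix of sub-clusters. Within sub-cluster 6, the 36 cycling cells (772829 UMI) could be set against 46 sum-0 cells (640538 UMI), a comparison added after the data were seen. There 3398 genes had at least 50 UMI, of which 10.4% were at least 2-fold higher and 5.74% at least 2-fold lower, with a median log2 ratio of 0.10. Of the 3398 genes, 1795 passed this minimum only with the cycling cells, so counts of higher genes inside the sub-cluster favour genes high there. Of 90 measured cell cycle genes 79 were higher and 0 lower (median log2 3.38), but 76 of the 90 passed the minimum only with the cycling cells. Some, such as Ccnb1, Ccna2 and Nusap1, had 0 UMI in its sum-0 cells and were set to a floor of 3 UMI there. The median of 3.38 rests in part on such floor values. Among the 14 genes with at least 50 UMI in its sum-0 cells alone, 10 were higher and 0 lower (median log2 1.79), where 3.68% of all genes were higher and 7.86% lower on that minimum. The sub-cluster is not uniform. At resolution 1.0, 30 of its 36 cycling cells fell in the cluster of 38 cells that held no sum-0 cell. Its sum-0 cells fell in equal parts of 23 in a cluster led by Ctse, Gkn2 and Spp1, with 5 of its cycling cells, and in one led by Ccl9 and Ccl20, with 1. Values inside sub-cluster 6 therefore compare cells that a finer clustering parts.

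**Figure D4:**
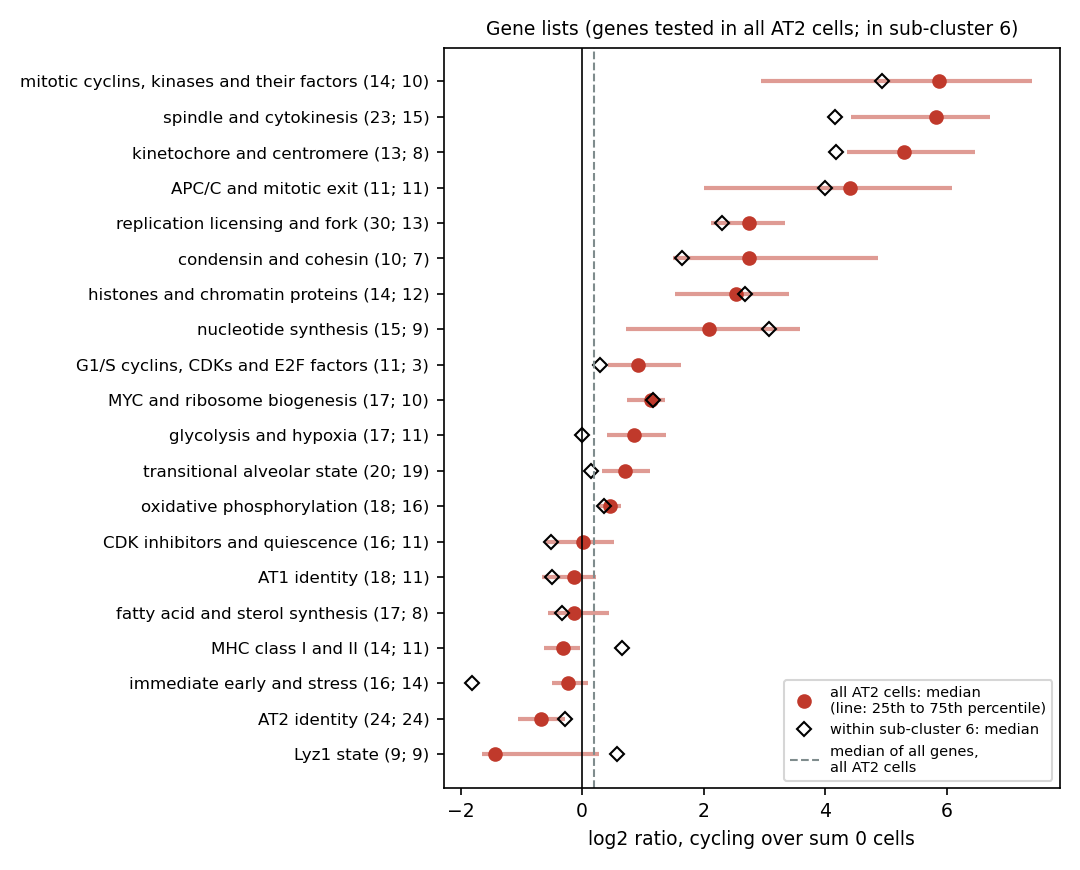
Median log2 ratio of cycling over sum-0 cells for 20 gene lists, with the number of genes measured in all AT2 cells and in sub-cluster 6 in brackets; red points and lines are the median and the 25th to 75th percentile of genes in all AT2 cells, open diamonds the median within sub-cluster 6, and the dashed line the median of all genes in all AT2 cells at 0.19. Cell cycle lists lie to the right in both comparisons, while the Lyz1 state list is at -1.44 in all AT2 cells and 0.58 within sub-cluster 6.

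As a list, genes of AT2 identity were lower in the cycling cells over all AT2 cells, and less so inside sub-cluster 6. Of 24 genes 7 were at least 2-fold lower and 0 higher, where 5.36% of all genes were lower (median log2 -0.68). Sftpc stood at 53696 CPM in cycling cells against 133465 CPM in sum-0 cells, a ratio of 0.402 (95% interval 0.399 to 0.406). Lyz2, a lysozyme of AT2 cells and macrophages, stood at 4693 CPM in cycling cells against 19581 CPM in sum-0 cells, a ratio of 0.240 (95% interval 0.233 to 0.246), with 152, 1467 and 32114 CPM in the lowest, median and highest cycling cell and 0, 17435 and 104154 CPM in sum-0 cells. The ranges of single cells overlapped. Napsa, a protease that processes surfactant proteins, had a ratio of 0.388 (95% interval 0.354 to 0.425) and Hc, complement C5, one of 0.226 (95% interval 0.172 to 0.291). Sftpb went the other way by a little, at 14708 CPM in cycling cells against 12337 CPM in sum-0 cells, a ratio of 1.19 (95% interval 1.17 to 1.21), but the deepest cell gave 31.9% of its UMI in cycling cells, and without that cell the ratio was 0.888. The median cell had 10035 CPM of Sftpb among cycling and 10426 CPM among sum-0 cells. Lamp3, of the lamellar body that stores surfactant, had a ratio of 0.734 (95% interval 0.666 to 0.808) and Nkx2-1 one of 0.854 (95% interval 0.750 to 0.969).

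Inside sub-cluster 6 the AT2 list had 3 of 24 genes at least 2-fold lower (median log2 -0.29). Sftpc stood there at 41914 CPM in cycling cells against 55124 CPM in sum-0 cells, a ratio of 0.760 (95% interval 0.749 to 0.772), and Napsa at a ratio of 0.566 (95% interval 0.481 to 0.664). Sftpb, unlike the list, was lower there than over all AT2 cells. It stood at 16112 CPM in cycling cells against 27084 CPM in sum-0 cells, a ratio of 0.595 (95% interval 0.581 to 0.609). A single cell gave 40.2% of the Sftpb UMI of these cycling cells. Summed Lyz2 was higher there, at 5105 CPM in cycling cells against 3396 CPM in sum-0 cells, a ratio of 1.5 (95% interval 1.43 to 1.58). But 1 cell gave 25.6% of its UMI in these cycling cells. The cycling cells with 40638 and 41884 UMI had 24829 and 16593 CPM of Lyz2, and no ratio was made without them. When sum-0 cells were weighted to the sub-cluster mix of the cycling cells, 1 of the 24 genes was at least 2-fold lower. Without the cells at or under the endothelial Sftpc percentile, 44 cycling against 1334 sum-0 cells, 5 genes were lower and the log2 ratio of Sftpc was -0.77.

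Genes of the Lyz1 state (Lyz1, Cbr2, Scd1 and others, listed with earlier results of these cells known) had a median below 1 over all AT2 cells and above 1 inside sub-cluster 6. Over all AT2 cells 6 of 9 were at least 2-fold lower (median log2 -1.44). Lyz1, a lysozyme whose reads may be shared with Lyz2, stood at 43.1 CPM in cycling cells against 242 CPM in sum-0 cells, a ratio of 0.178 (95% interval 0.130 to 0.238), with a UMI in 14 of 57 and 433 of 1467 cells. The ratio was 0.109 without the 1 cycling cell that had more Lyz1 UMI than any other. Cbr2, a carbonyl reductase, stood at 51.6 CPM in cycling cells against 421 CPM in sum-0 cells, a ratio of 0.122 (95% interval 0.0921 to 0.160), and Scd1, the desaturase of fatty acid synthesis, at 634 CPM in cycling cells against 1981 CPM in sum-0 cells, a ratio of 0.320 (95% interval 0.296 to 0.345). Inside sub-cluster 6, 0 were lower and 3 higher (median log2 0.58): Lyz1 had a ratio of 2.55 (95% interval 1.37 to 5.04) on 43 and 14 UMI, or 1.5 without the cell that gave 19 of the 43 UMI, Cbr2 one of 1.69 (95% interval 1.01 to 2.92) and Scd1 one of 0.623 (95% interval 0.549 to 0.706). Of all genes measured inside sub-cluster 6, 10.4% were higher. Lyz1 and Cbr2, with 14 and 23 UMI in its sum-0 cells, passed the minimum there only with the cycling cells. Elovl1, a fatty acid elongase, was lower over all AT2 cells at a ratio of 0.308 (95% interval 0.274 to 0.345) and less so inside the sub-cluster at 0.705 (95% interval 0.579 to 0.858).

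Keratins of the transitional alveolar state were higher over all AT2 cells. Of 20 genes 7 were at least 2-fold higher and 1 lower (median log2 0.71). Krt7 stood at 1288 CPM in cycling cells against 387 CPM in sum-0 cells, a ratio of 3.33 (95% interval 3.14 to 3.53), and in the median cell at 356 CPM among cycling and 144 CPM among sum-0 cells. Krt19 had a ratio of 2.83 (95% interval 2.61 to 3.06), Krt18 one of 2.61 (95% interval 2.49 to 2.72) and Krt8, the keratin that marks the state, one of 2.1 (95% interval 1.98 to 2.22). The median cell had 650.3 CPM of Krt8 among cycling and 270.0 CPM among sum-0 cells. Epcam was 2.05 times as high, and 1.998 times without 1 cell. Cldn4, a tight junction gene of the same state, was not higher, at 53.4 CPM in cycling cells against 65.5 CPM in sum-0 cells and a ratio of 0.816 (95% interval 0.614 to 1.07), and Nupr1, a stress gene, was lower at 0.249 (95% interval 0.215 to 0.287). Inside sub-cluster 6, 0 of 19 measured genes passed 2-fold either way, with Krt7 at 1.68 (95% interval 1.53 to 1.86) and Krt8 at 1.28 (95% interval 1.16 to 1.41). Leaving out the cells at or under the endothelial Sftpc percentile, the log2 ratio was 0.67 for Krt7 and 0.98 for Krt8. AT1 genes showed 0 of 18 higher and 3 lower (median log2 -0.13): Ager stood at 1529 CPM in cycling cells against 1557 CPM in sum-0 cells, a ratio of 0.982 (95% interval 0.933 to 1.03), and Hopx at 10.3 CPM in cycling cells against 29.1 CPM in sum-0 cells, a ratio of 0.354 (95% interval 0.175 to 0.640).

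**Figure D5:**
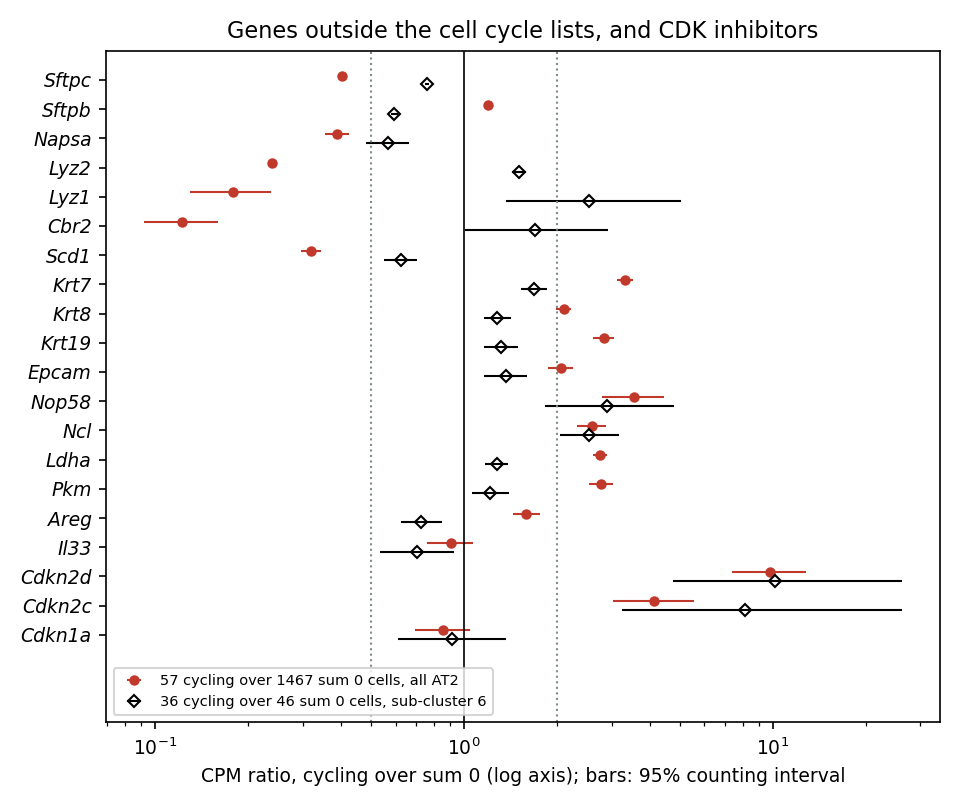
Ratio of levels, cycling over sum-0 cells, of 20 genes outside the cell cycle lists (log axis) over all AT2 cells, in red, and within sub-cluster 6, as open diamonds; bars are 95% counting intervals and dotted lines mark 0.5 and 2. Lyz1 and Cbr2 lie on opposite sides of 1 in the comparisons, Krt7, Krt19, Ldha and Pkm lie nearer 1 within the sub-cluster, and Nop58, Ncl, Cdkn2d and Cdkn2c lie above 2 in both.

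Genes of ribosome biogenesis were higher in both comparisons. Over all AT2 cells 10 of 17 measured genes of the MYC and ribosome list were at least 2-fold higher and 0 lower (median log2 1.13), where 10.2% of all genes were higher. Inside sub-cluster 6 the count was 6 of 10 (median log2 1.17), where 10.4% of all genes were higher. Nop58 and Nop56 had 24 and 28 UMI in the sum-0 cells of sub-cluster 6, so they passed the minimum there only with the cycling cells. Ncl had 111 UMI in these sum-0 cells. How many other genes of the list passed only with the cycling cells was not counted. Ncl, nucleolin, stood at 389.9 CPM in cycling cells against 151 CPM in sum-0 cells, a ratio of 2.59 (95% interval 2.32 to 2.87) over all AT2 cells and 2.55 (95% interval 2.05 to 3.18) inside the sub-cluster. Nop58 and Nop56, core proteins of the particles that methylate ribosomal RNA, had ratios of 3.54 (95% interval 2.8 to 4.44) and 3.04 (95% interval 2.39 to 3.83) over all AT2 cells. Myc had 12 UMI in 8 cycling cells and a ratio of 1.67 (95% interval 0.835 to 3.04), with 1 inside the interval, and 1.02 without the cell that gave 5 of them. Mycn had 15 UMI in 11 cycling cells and a ratio of 3.67 (95% interval 1.93 to 6.56) over all AT2 cells, but 0.651 (95% interval 0.268 to 1.54) inside sub-cluster 6.

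Glycolysis genes were higher over all AT2 cells and had a median ratio near 1 inside sub-cluster 6. Over all AT2 cells 7 of 17 genes were at least 2-fold higher (median log2 0.85), with Ldha, lactate dehydrogenase, at 1480.0 CPM in cycling cells against 537 CPM in sum-0 cells, a ratio of 2.76 (95% interval 2.61 to 2.91), Pkm, pyruvate kinase, at 2.78 (95% interval 2.54 to 3.03) and Eno1, enolase, at 2.9 (95% interval 2.53 to 3.31). The deepest cell gave 36% of the Ldha UMI of the cycling cells, and without it the ratio of Ldha was 1.93. Inside sub-cluster 6, 0 of 11 genes were at least 2-fold higher and 2 at least 2-fold lower (median log2 0.00), where 5.74% of all genes were lower. Ldha stood there at a ratio of 1.28 (95% interval 1.17 to 1.39), or 0.860 without the deepest cell. Oxidative phosphorylation genes had a median log2 of 0.46 over all AT2 cells, where all genes had 0.19, and 0.36 inside the sub-cluster, where all genes had 0.10. Cycs, cytochrome c, had a ratio of 2.16 (95% interval 1.94 to 2.39) over all AT2 cells and 2.39 (95% interval 1.94 to 2.96) inside it. Of 17 fatty acid and sterol genes 1 was higher, Sqle of sterol synthesis at 2.3 (95% interval 1.39 to 3.62) or 1.85 without 1 cell, and 2 were lower, Scd1 and Elovl1.

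Genes by which AT2 cells face the immune system differed little over all AT2 cells. None of 14 MHC class I and II genes passed 2-fold (median log2 -0.32); H2-Aa, a class II chain, stood at 1443 CPM in cycling cells against 2229.9 CPM in sum-0 cells, a ratio of 0.647 (95% interval 0.615 to 0.681). Inside sub-cluster 6, 3 of 11 MHC genes were at least 2-fold higher and 0 lower (median log2 0.65), with H2-Aa at 1.52 (95% interval 1.36 to 1.7). Il33, the alarmin named in the study's title, stood at 133 CPM in cycling cells against 147 CPM in sum-0 cells, a ratio of 0.905 (95% interval 0.758 to 1.07), with a UMI in 36 of 57 cycling and 685 of 1467 sum-0 cells; after thinning the shares were 36.8% and 34.8%. Inside sub-cluster 6 its ratio was 0.703 (95% interval 0.534 to 0.925). Of 13 interferon-stimulated genes 2 were lower and 0 higher (median log2 -0.29): Ifit1 had 2 UMI in cycling and 215 in sum-0 cells, and Ifit3 had 9 and 625, a ratio of 0.204 (95% interval 0.0930 to 0.390). Inside sub-cluster 6, 2 of 6 were higher and 0 lower (median log2 0.91). Of all genes measured inside sub-cluster 6, 10.4% were higher and 5.74% lower, and 1795 of 3398 passed the minimum only with the cycling cells. How many of the MHC and interferon-stimulated genes did so was not counted. Areg, an EGFR ligand, stood at 416 CPM in cycling cells against 262 CPM in sum-0 cells, a ratio of 1.59 (95% interval 1.44 to 1.76) over all AT2 cells and 0.726 (95% interval 0.623 to 0.847) inside the sub-cluster. RAS-MAPK output genes had a median log2 of 0.04 and no gene at least 2-fold higher.

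Immediate early genes, which growth signals and stress switch on within minutes, were lower inside sub-cluster 6. There 12 of 14 were at least 2-fold lower in cycling cells (median log2 -1.81), where 5.74% of its genes were. Egr1 stood at 53.1 CPM in cycling cells against 436 CPM in sum-0 cells, a ratio of 0.122 (95% interval 0.0855 to 0.169), Jun at 129 CPM in cycling cells against 543 CPM in sum-0 cells, a ratio of 0.238 (95% interval 0.189 to 0.298), and Fosb at 16.8 CPM in cycling cells against 222 CPM in sum-0 cells, a ratio of 0.0759 (95% interval 0.0394 to 0.134). Without the cycling cell with most UMI of the gene the ratio was 0.0783 for Egr1 and 0.0369 for Fosb, while no sum-0 cell was left out in turn. Egr1 had a UMI in 36.1% of cycling and 39.1% of sum-0 cells, Jun in 58.3% and 65.2%, and Fosb in 11.1% and 30.4%. For Egr1 and Jun the groups thus differed far less in the share of cells than in summed level. Over all AT2 cells 1 of 16 was lower, Fosb at 0.451 (95% interval 0.261 to 0.729) or 0.276 without 1 cell, and the median log2 was -0.23. The log2 ratio of Fosb was 0.28 when cells with a sum of 2 counted as cycling.

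Outside all cell cycle lists, most of the highest ratios fell in 3 kinds. Ccdc34, at a ratio of 14.3 over all AT2 cells and 12.7 inside sub-cluster 6, was placed in none of these kinds. Neither was Krt79, at 9.51 over all AT2 cells. The first kind were further genes of division. 2810417H13Rik (Pclaf, a factor that binds Pcna) stood at 262 CPM in cycling cells against 0.661 CPM in sum-0 cells, a ratio of 397 (95% interval 213 to 838), and was read in 45 of 57 cells; Tubb6, a beta tubulin, had 20.7 (95% interval 15.9 to 27.1), Pmf1, of the kinetochore, 9.28 (95% interval 7.45 to 11.5) and Lmnb1, lamin B1, 8.63 (95% interval 6.67 to 11.1). The second kind were genes with a large part of their UMI in 1 cell. The cell with 91413 UMI gave 83.3% of the UMI of Spp1 (osteopontin), 76.5% of Ly6g6c, 69.6% of R3hdml, 61.3% of Ptprn and 47.8% of Phgr1 in the group. With it Spp1 had a ratio of 10.5 and without it 1.91; Ly6g6c had 10.4 and 2.67, R3hdml 15.6 and 5.17, Ptprn 6.87 and 2.90, and Phgr1 7.24 and 4.14. The third was Gsto1, a glutathione transferase, at 455 CPM in cycling cells against 64.9 CPM in sum-0 cells, a ratio of 7.01 (95% interval 6.27 to 7.82), which inside sub-cluster 6 was 0.886 (95% interval 0.776 to 1.01). Tff1 and Gkn2, gastric genes of tumour progression, were in 3 and 7 cycling cells, with ratios of 2.32 (95% interval 1.76 to 3.01) and 1.79 (95% interval 1.41 to 2.24) over all AT2 cells and 0.139 (95% interval 0.105 to 0.181) and 0.0995 (95% interval 0.0770 to 0.127) inside the sub-cluster. A single cell gave 66 of the 85 UMI of Gkn2, and without it the ratio over all AT2 cells was 0.413; without the cell with most Tff1 that of Tff1 was 1.47. Inside the sub-cluster the values without these cycling cells were 0.0100 for Gkn2 and 0.0895 for Tff1, while no sum-0 cell was left out in turn. There Tff1 was read in 3 of 36 cycling and 5 of 46 sum-0 cells, and Gkn2 in 6 and 17. The 394 UMI of Tff1 in sum-0 cells thus came from 5 cells.

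Among the lowest ratios over all AT2 cells were those of chemokines, globins and genes that lead sub-clusters 3 and 4. Ccl20 had 14 UMI in 7 cycling and 2052 UMI in 92 sum-0 cells, a ratio of 0.0968 (95% interval 0.0528 to 0.163). Cyp2b10 and Cox6a2 had ratios of 0.103 and 0.149, with 5 and 26 cycling cells that had a UMI. Outside these groups, Acoxl had a ratio of 0.145 and S100a8 one of 0.130. Hba-a1, an alpha globin that reads may share with Hba-a2, stood at 124 CPM in cycling cells against 1118 CPM in sum-0 cells, a ratio of 0.111 (95% interval 0.0925 to 0.131). The 17 cells of sub-cluster 7, none of them cycling, had 72426 CPM of Hba-a1. The erythroid list summed to 629 CPM in cycling and 4304 CPM in sum-0 cells, but its median per cell was 645 CPM in cycling and 822 CPM in sum-0 cells.

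Markers of other cell types were measured beside these results. Ptprc, the CD45 gene, had 0 UMI in cycling cells and 18 UMI in 14 sum-0 cells. The leukocyte list summed to 133 CPM in cycling and 149 CPM in sum-0 cells, with 0 of 6 measured genes higher, and after thinning 5.26% of cycling and 5.18% of sum-0 cells had at least 3 UMI of it. The endothelial list summed to 646 CPM in cycling and 859 CPM in sum-0 cells, with 0 of 11 genes past 2-fold either way, and Pecam1 had a ratio of 0.906 (95% interval 0.675 to 1.19). The airway list summed to 422 and 541 CPM, and the lymphocyte list to 31.9 and 42.0 CPM, in cycling and sum-0 cells. The mesothelial and fibroblast list was higher, at 163 CPM in cycling and 75.6 CPM in sum-0 cells, through Msln alone, at 137 CPM in cycling cells against 37.7 CPM in sum-0 cells, a ratio of 3.63 (95% interval 3 to 4.36); Dcn and Upk3b had 8 and 7 UMI in cycling cells. In the alveolar macrophage list 1 of 8 genes was higher, Krt79, at 9.51 (95% interval 6.9 to 13), and Chil3 had a ratio of 0.542 (95% interval 0.307 to 0.890). Without sub-clusters 5 and 7, which are led by endothelial and globin genes, 48 cycling and 1299 sum-0 cells were left, with 1086 genes higher and 541 lower.

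The share of cycling cells was set beside that of other classes by the same rule. In the CD45-negative library it was 3.40% (95% interval 2.58 to 4.38) of AT2 cells, 2.81% (1.22 to 5.46) of 285 AT1 cells, 2.56% (1.76 to 3.60) of 1249 endothelial cells, 1.69% (0.621 to 3.63) of 356 fibroblasts and 17.6% (10.9 to 26.1) of 108 immune cells. In the ciliated class, where Foxj1, a factor of motile cilia, had a UMI in 75.9% of cells, the rule took 1 of 108 cells (0.926%, 0.0234 to 5.05), and in erythrocytes 1 of 174 (0.575%, 0.0145 to 3.16). These intervals overlapped that of AT2 cells, and whether the 2 cells divide was not tested. After thinning to 2000 UMI the share was 1.07% (0.637 to 1.69) in AT2 cells, 1.60% (0.981 to 2.46) in endothelial cells and 0 in AT1 cells, which allows up to 1.29%. AT2 cells were above endothelial cells before thinning and below them after it, and their intervals overlapped both times. At a median of 8143 UMI per AT2 and 6808 UMI per endothelial cell, the shares as deposited are not matched.

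AT2 cells of the CD45-positive library gave a second, shallower look. The rule took 20 of 1324 cells there (1.51%, 0.925 to 2.32), with a median of 7504 UMI, and 1185 cells had a sum of 0. Of 79 measured cell cycle genes 65 were at least 2-fold higher and 0 lower (median log2 1.92), where 11.8% of all genes were higher and 8.1% lower. Ube2c had 81 UMI in these 20 cells and a ratio of 89.8 (95% interval 58.7 to 141), and Birc5 58 UMI and a ratio of 86.6 (52.6 to 147). The MYC and ribosome list had 5 of 14 genes higher (median log2 0.77) and Sftpc a ratio of 0.365. AT2 identity genes had 4 of 24 at least 2-fold lower (median log2 -0.25), the Lyz1 state 4 of 9 lower (0.04) and the transitional state 3 of 20 higher and 1 lower (0.40). Leukocyte RNA was in nearly all of these cells, at least 3 UMI in 19 of 20 cycling cells and 81.7% of sum-0 cells, and its part in these values was not tested. The summed erythroid list went the opposite way from the CD45-negative library, with 4 of 4 measured genes higher (median log2 1.86). It summed to 6599 CPM in cycling and 1755 CPM in sum-0 cells. But only 2 of the 20 cycling cells (10%) and 11.4% of sum-0 cells had at least 3 UMI of it.

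Cell cycle genes were higher in the cycling cells of other classes too. In endothelial cells of the CD45-negative library (32 cycling, 1160 sum-0) 70 of 102 cell cycle genes were at least 2-fold higher (median log2 1.65), where 5.68% of all genes were higher and 9.47% lower, and in immune cells of the CD45-positive library (362 and 6330) 176 of 190 were (2.82), where 5.56% of all genes were higher and 4.22% lower. The MYC and ribosome list had 1 of 14 genes higher in endothelial cells (0.28) and 0 of 16 in immune cells (0.32), where AT2 cells had 10 of 17 (1.13). Glycolysis had 1 of 15 higher in endothelial (-0.02) and 0 of 17 in immune cells (-0.01). In AT2 cells it had 7 of 17 higher (0.85) in the CD45-negative library, but 1 of 15 higher and 1 lower (0.55) in the CD45-positive library. In the 8 AT1 cells that met the rule 9 of 55 cell cycle genes were higher (0.28), where 4.79% of all genes were higher and 7.45% lower. With 1 library per fraction the differences between classes were not tested.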

How the data were processed

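The deposited counts are whole UMI per gene and cell in 1 table of both libraries, made by the authors with Cell Ranger 1.1.0 against the mm10 transcriptome, per the series design text, from 3' reads of Chromium V2 libraries. Cell classes were taken from the authors' deposited annotation; their assignment, the cell filter and any doublet step were not given in the sources used here, and no cell was removed. The library of each cell came from its name, and both libraries and 17790 genes were used. UMI were summed per group and scaled to CPM. Ratios used no model and no pseudocount, except that a group with 0 UMI of a gene was set to a floor of 3 UMI. Intervals are at 95% and cover counting error only; without replicates there is no test. Only the ratios and their intervals were tried on simulated data, made of Poisson counts without spread between cells. Cells were thinned to 4500 UMI within AT2 and to 2000 UMI over classes with a fixed seed. AT2 cells were clustered with the Leiden method (2000 variable genes without the cell cycle lists, 30 components, 15 neighbours, resolution 0.5). Named genes are the rule genes, up to 5 per list with the largest absolute log2 ratio, the 12 highest and 12 lowest with at least 200 UMI outside the cell cycle lists, and a short list of AT2, cycle and immune genes. The members and the 33 gene lists were chosen with earlier results of these data known. Promoter sequences came from RefSeq (GRCm38.p6). Alternatives covered the threshold and genes of the rule, depth, scaling, the UMI minimum, the comparison cells and doubted cells. Clustering used scanpy 1.11.5 and igraph 0.11.9, intervals scipy 1.17.1 and figures matplotlib 3.10.9, under Python 3.11.15 with pandas 2.3.3 and numpy 2.4.6.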

Additional observations from a re-analysis of the deposited data

How the results depend on the processing

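No paired analysis was possible because both groups are cells of 1 library, with no replicate numbers and no test. The share of AT2 cells that met the rule was 4.83% with a sum of at least 2 UMI, 2.504% with at least 5, 2.147% on cells thinned to 4500 UMI, 2.564% leaving out Cdk1, and 1.37% without cells that had at least 3 UMI of other cell types' markers. That last setting left 1 cycling and 67 sum-0 cells, so no ratio was made from it. Thinning to 4500 UMI left 62 cell cycle genes at least 2-fold higher and 3 AT2 identity genes lower, and the mean of levels per cell gave 3 AT2 identity genes lower; fewer genes reach 50 UMI after thinning. A minimum of 200 UMI gave 443 genes higher, 192 lower and 49 cell cycle genes higher, and a minimum of 1 UMI gave 5264 genes higher. Genes unread in cycling cells can enter that last count, because they were set to the floor of 3 UMI in the smaller group. It is therefore not a count of genes seen at a higher level. Clustering on all genes put 77.19% of the cycling cells in 1 sub-cluster. With sum-0 cells weighted to the sub-cluster mix of the cycling cells, 1 AT2 identity gene was lower, and of the named genes past 2-fold these log2 ratios changed sign: Tff1 -2.849, Mycn -0.3043, Car9 -0.9024, Ereg -0.7368, Cd52 0.2507, Spp1 -0.008484, Phgr1 -0.1806, Gsto1 -0.1641 and Ptprn -0.7882. Among named genes under 2-fold, Gkn2 (-3.11), Areg (-0.40), Myc (-0.12) and Sftpb (-0.61) are examples that changed sign there too. The log2 ratio of Tff1 was also -0.007511 by the mean per cell and -2.671 without the low-Sftpc cells, and that of Fosb was 0.2755 with at least 2 UMI; the cause was not tested. Over 18 alternatives the 131 named genes past 2-fold gave 2221 values, of which 2056 stayed past 2-fold in the same direction, 153 were under 2-fold and 12 changed sign. Of the 12 lists with a median past 2-fold, 8 were so in all 18 alternatives. Genes under 50 UMI cannot be compared at this depth.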
